A study of Homo sapiens with 6 samples.

Results

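STMN2, GAP43 and MAP2 encode 3 proteins of the neuronal growth cone and cytoskeleton, and their transcripts were read in a line that is not neuronal. They were chosen by name, and each is measured by 1 probe set, so the 3 genes are 3 of the 14884 tested here. The choice was made with their values in view, so their differences between the groups are given as a description, with no test. The cells were U-2 OS, an established human osteosarcoma line, and all 6 arrays are of cells infected with a retroviral vector that carries progerin, the truncated lamin A of Hutchinson-Gilford progeria. On 3 arrays the vector expressed wt-progerin, progerin with no further change. On the other 3 it expressed S22A-progerin, whose serine 22 is replaced by alanine. That serine is phosphorylated when the nuclear lamina comes apart at mitosis. All cells were under puromycin at 5 µg/ml for 3 days and were harvested 4 days after infection. Uninfected cells were not analysed here, so a difference does not tell which group departs from the parental line. The labels call the replicates independent, and the p-values below set a group difference against the spread between these arrays within the groups.

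Stathmins bind free tubulin pairs and favour the shrinking of microtubules, while structural microtubule-associated proteins lie along the polymer and stabilise it. STMN2, also known as SCG10, is the stathmin of growing axons, where it is anchored to membranes by palmitoylation. GAP43 is a membrane-bound substrate of protein kinase C that binds calmodulin and associates with actin at the growth cone, so it is not a component of filaments itself. MAP2 is the classical protein of dendritic microtubules and also tethers protein kinase A. In neurons STMN2 and GAP43 are markers of axon outgrowth and MAP2 of dendrites.

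STMN2 and GAP43 were higher in S22A-progerin cells, by 1.66-fold and 1.23-fold, and MAP2 was lower, by 1.72-fold. The 3 genes therefore did not shift as a block. The arrays read whole cultures, so more RNA per cell and more cells with the RNA cannot be told apart. In each of them both groups were free of overlap, which was also true of 42.1% of all genes tested, and nothing is read from it because this contrast chose the genes. Values are log2 units after RMA, the array method that corrects background, equalises the distributions of the arrays and summarises the probes of a probe set.

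The STMN2 transcript, for the tubulin-binding growth cone protein, gave 5.82, 5.50 and 5.35 on the wt-progerin arrays against 6.28, 6.30 and 6.29 on the S22A-progerin arrays. The wt-progerin values were scattered and the S22A-progerin values nearly equal, and every S22A-progerin array lay above every wt-progerin array, with 0.46 between the nearest pair. The means were 5.56 ± 0.242 and 6.29 ± 0.0116 (SD, n = 3), a difference of 0.73 (SE 0.115) on the log2 scale. The wt-progerin spread was wider than that of most genes, at percentile 94.9 of all SDs in that group, and the S22A-progerin spread was at percentile 1.39. The difference was 0.628 without wt-progerin replicate 3, the lowest array, and 0.866 without wt-progerin replicate 1, the highest of its group. It was the 285th largest positive difference of the 14884 genes. The STMN2 signal was at percentile 20.7 of the genes on the wt-progerin arrays and 33.2 on the S22A-progerin arrays. Probe sets differ in affinity, so this percentile places the signal on the array and is no measure of transcript number, and no detection call was used here to tell a low value from absence.

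The GAP43 transcript, for the calmodulin-binding membrane protein, gave 6.61, 6.57 and 6.70 with wt-progerin against 6.83, 7.01 and 6.91 with S22A-progerin. The groups were close, with 0.139 between the highest wt-progerin and the lowest S22A-progerin array. The means were 6.62 ± 0.0661 and 6.92 ± 0.0896 (SD, n = 3), a difference of 0.29 (SE 0.0675). With each array left out in turn the difference ran from 0.248 to 0.337. Both SDs were near the middle of all genes, at percentiles 46.8 and 47.5. The signal went from percentile 40.9 to 46.3.

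The MAP2 transcript, for the dendritic microtubule stabiliser, gave 7.48, 7.55 and 7.34 with wt-progerin against 6.75, 6.64 and 6.63 with S22A-progerin. All 3 S22A-progerin arrays lay at least 0.593 below the lowest wt-progerin array, the widest gap among the 3 genes. The means were 7.46 ± 0.106 and 6.67 ± 0.0645 (SD, n = 3), so MAP2 was lower by a difference of -0.78 (SE 0.0717). It was the 186th largest negative difference of the 14884 genes, and the signal went from percentile 56.2 to 41.3. Within the groups the 3 genes did not share an order of arrays. The highest wt-progerin array was replicate 1 for STMN2, replicate 3 for GAP43 and replicate 2 for MAP2.

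**Figure D1:**
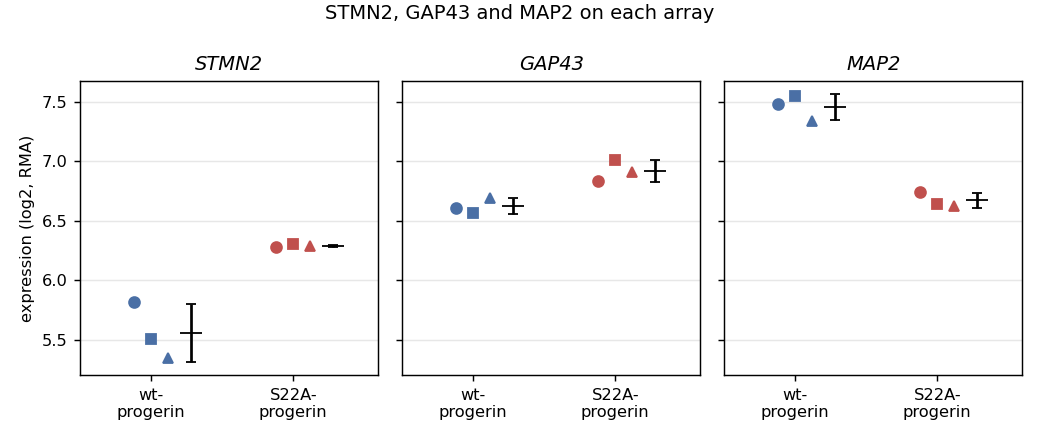
Expression of STMN2, GAP43 and MAP2 (y axis, log2 RMA values) on the 3 wt-progerin arrays (blue) and the 3 S22A-progerin arrays (red), with circles, squares and triangles for replicates 1, 2 and 3 and a black bar for the mean ± SD. STMN2 went from a mean of 5.56 to 6.29, GAP43 from 6.62 to 6.92 and MAP2 from 7.46 to 6.67, and levels of different genes are not comparable with each other.

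Sequence before a transcription start was looked at because 1 gene that was higher and 1 that was lower could be set side by side. RefSeq's table for build GRCh38.p14 matched GAP43 with 1 start and MAP2 with 3. STMN2 had no matched start there, so its sequence was not examined. The 250 bases before the GAP43 start (chr3:115623260-115623509, plus strand) and before 2 of the MAP2 starts (chr2:209579082-209579331 and chr2:209661246-209661495, plus strand) are printed 5′ to 3′, and capitals mark letters that matched a searched motif. The other MAP2 window (chr2:209579357-209579606, plus strand) begins just after the first start and is not printed. The last start also lies downstream of the first.
GAP43: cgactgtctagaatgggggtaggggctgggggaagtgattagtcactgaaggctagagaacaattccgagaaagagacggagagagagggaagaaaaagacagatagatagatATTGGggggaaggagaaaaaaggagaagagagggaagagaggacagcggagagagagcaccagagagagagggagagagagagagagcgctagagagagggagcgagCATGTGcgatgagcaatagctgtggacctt
MAP2 first start: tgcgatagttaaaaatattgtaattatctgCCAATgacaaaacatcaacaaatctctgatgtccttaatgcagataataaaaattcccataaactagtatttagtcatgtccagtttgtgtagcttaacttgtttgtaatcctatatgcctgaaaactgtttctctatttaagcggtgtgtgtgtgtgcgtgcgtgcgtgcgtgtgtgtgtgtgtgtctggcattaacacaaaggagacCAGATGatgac
MAP2 last start: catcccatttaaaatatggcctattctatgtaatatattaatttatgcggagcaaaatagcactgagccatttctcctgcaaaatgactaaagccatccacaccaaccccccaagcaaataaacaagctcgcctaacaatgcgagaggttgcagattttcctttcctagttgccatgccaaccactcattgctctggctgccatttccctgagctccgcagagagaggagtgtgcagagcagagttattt
Both strands were searched for TGANTCA (AP-1), TGACGTCA (CRE), CANNTG (E-box), TATAAA (the site of TBP), GGGCGG (the site of SP1) and CCAAT. The GAP43 window held 1 E-box, 30 bases before the start, and 1 CCAAT on the other strand, 137 bases before it. The first MAP2 window held 1 E-box at 11 bases and 1 CCAAT at 220 bases, and the last MAP2 window held 0 of the 6 motifs. An E-box was present in 61.8% and CCAAT in 32.0% of the 35116 windows of this length. AP-1, CRE, TBP and SP1 matches, at 6.57%, 1.65%, 10.7% and 42.6%, were absent from the 3 printed windows. What set the GAP43 window apart in composition was its run of A and G. Of its bases 78.4% were purines, and 0.196% of all windows were as skewed to purines or to pyrimidines. The printed MAP2 windows had 50% and 47.6% purines, and the first of them carries a GT repeat. These matches describe letters and say nothing of factor binding.

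The stathmin family was measured completely, and of its other members 1 fell and none rose. STMN1, the widely expressed stathmin of dividing cells, gave 8.66, 8.78 and 8.71 with wt-progerin against 8.13, 8.05 and 8.05 with S22A-progerin. It fell by 0.64 on the log2 scale (SE 0.0583, 1.56-fold, limma adjusted p = 0.000368), while STMN2 was higher in the same cells. STMN4 gave 5.70, 6.08 and 6.06 against 6.12, 6.34 and 6.15, a difference of 0.26 (SE 0.117) that did not pass (limma adjusted p = 0.162). STMN3, another neuronal stathmin, differed by 0.11 (SE 0.072) with overlapping groups and did not pass either. Over all genes tested, 10.8% rose and 14.6% fell. With the dimmer 50% of genes left out, 1369 rose and 2365 fell of 7442, a larger share than over all genes. A list of bright genes can therefore exceed the share over all genes, and the part of signal level in the list shares below was not tested.

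Falls outnumbered rises among microtubule-associated proteins and their regulators. Of 42 measured genes, MAP2 left out, 15 fell and 5 rose at an adjusted p under 0.05. That is 47.6% called beside 25.4% of all genes, and the median difference was -0.065 beside -0.00367 over all genes. The median signal of this list was at percentile 60.6 in wt-progerin. Among the structural proteins, MAP1B, the early axonal microtubule protein, gave 11.27, 11.32 and 11.30 with wt-progerin against 10.89, 10.85 and 10.94 with S22A-progerin, a fall of 1.32-fold (difference -0.40, SE 0.0529, limma adjusted p = 0.00184). MAP1A, its mature counterpart, fell by 0.53 and MAP4, the MAP2 relative of non-neuronal cells, by 0.33. MAPT, which encodes tau, differed by 0.07 (SE 0.0673) with overlapping groups and did not pass. CKAP5, a microtubule polymerase, fell by 0.57, NAV1, a plus-end protein, by 0.52, and FIGN, a severing enzyme, by 0.50.

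The rises in that list were fewer and included the largest difference of any gene in these lists. DCLK1, a doublecortin-like microtubule-binding kinase, gave 6.79, 7.29 and 6.96 with wt-progerin against 8.74, 8.66 and 8.62 with S22A-progerin. Its groups were more than 1 log2 unit apart, and it rose 3.17-fold (difference 1.66, SE 0.122, limma adjusted p = 0.00015). NAV3, a plus-end protein of the same family as NAV1, rose 1.92-fold (difference 0.94, SE 0.0554). MAP1LC3B, an autophagosome protein first found with microtubule proteins, rose by 0.47, and MAP1S and MAP7D2 each by 0.24. DCX, doublecortin, differed by 0.26 (SE 0.0942) and did not pass. Without wt-progerin replicate 2, or without wt-progerin replicate 3, 9 genes of this list fell, and without any of the 3 wt-progerin arrays, S22A-progerin replicate 1 or S22A-progerin replicate 2 the rises were 3. MAP1S (0.185 to 0.256) and MAP7D2 (0.188 to 0.264) did not pass without any 1 array other than S22A-progerin replicate 3, nor with the arrays centred on their medians (0.207 and 0.206), and MAP7D2 also missed with the arrays quantile normalized again and with the trend and robust prior. MAP1A, MAP4, MAP1LC3B, MAP1S and MAP7D2 were picked after their values were seen. None of the 22 tubulin genes was analysed here, as none had a probe set with its name.

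GAP43 relatives and other growth cone proteins moved both ways. Of 30 measured, GAP43 left out, 5 rose and 8 fell, 43.3% called beside 25.4% of all genes, with a median of -0.100. The median signal of this list was at percentile 61.9 in wt-progerin. L1CAM and NCAM1, adhesion molecules of axons, were among the falls. L1CAM gave 8.34, 8.17 and 8.32 with wt-progerin against 7.43, 7.40 and 7.19 with S22A-progerin, 1.92-fold lower (difference -0.94, SE 0.0836, limma adjusted p = 0.000335). NCAM1 gave 8.89, 8.96 and 8.94 against 8.09, 7.95 and 8.18, 1.81-fold lower (difference -0.86, SE 0.0716). In both genes the groups were well apart. The other adhesion molecules measured, NCAM2 (-0.31), NFASC (-0.15), CHL1 (-0.10), NRCAM (-0.10), CNTN1 (-0.04) and CNTN2 (0.23), did not pass, though CNTN2 was higher without S22A-progerin replicate 1 (0.338) and NFASC lower with the dimmer 50% of genes left out. These 6 were named after their values were seen. ENAH, an actin elongation factor, fell by 0.60, and PALM, a membrane-shaping phosphoprotein, fell by 0.45. MARCKSL1, a protein kinase C substrate that is often grouped with GAP43, fell by 0.27.

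The rises among growth cone genes were FEZ1, DPYSL4, RTN4, PCP4 and CTTN. FEZ1, a kinesin adaptor of axon growth, gave 7.05, 6.94 and 6.95 against 7.58, 7.52 and 7.51, a rise of 1.47-fold (difference 0.56, SE 0.0568, limma adjusted p = 0.000588). DPYSL4 rose by 0.39, while its fellow collapsin response mediators DPYSL5 (-0.45), CRMP1 (-0.42) and DPYSL3 (-0.42) fell and DPYSL2 (-0.09) did not pass. RTN4, which encodes Nogo, rose by 0.25. PCP4 (0.26), a calmodulin-binding peptide with the same kind of motif as GAP43, and CTTN (0.22), cortactin, rose too. The rises numbered 3 without wt-progerin replicate 1 or replicate 2 and 2 without wt-progerin replicate 3. RTN4 did not pass without wt-progerin replicate 2 (0.205) or 3 (0.263), and CTTN (0.196 to 0.211) without wt-progerin replicate 1 or 3 or S22A-progerin replicate 1 or 2, nor with the arrays centred on their medians (0.189). PCP4 (0.210 to 0.288) did not pass without any 1 array other than S22A-progerin replicate 2, nor with the trend and robust prior, and MARCKSL1 (-0.234 to -0.265) without wt-progerin replicate 1 or 3 or S22A-progerin replicate 1. BASP1, the closest functional relative of GAP43, was not analysed here. The 5 collapsin response mediators, RTN4, PCP4, CTTN and MARCKSL1 were named after their values were seen.

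**Figure D2:**
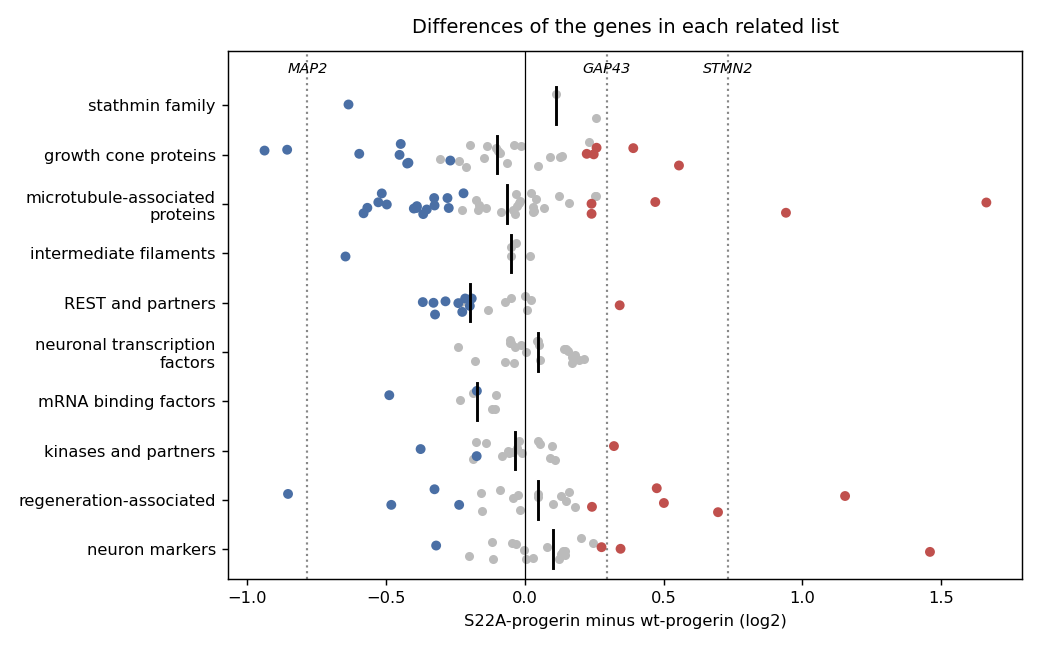
Difference S22A-progerin minus wt-progerin (x axis, log2) of every measured gene in 10 lists related to STMN2, GAP43 and MAP2 (y axis, vertical scatter only for legibility), with genes that passed as higher in red, as lower in blue and others in grey, and the list median as a black bar. Dotted lines mark the 3 genes themselves at 0.73, 0.29 and -0.78, and DCLK1, at 1.66, is the point farthest to the right.

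Intermediate filament genes were measured for 5 of 10. NES, nestin of neural and mesenchymal progenitors, gave 7.72, 7.91 and 7.93 with wt-progerin against 7.26, 7.24 and 7.12 with S22A-progerin, and fell 1.57-fold (difference -0.65, SE 0.0757, limma adjusted p = 0.00107). VIM, the vimentin of mesenchymal cells, differed by -0.05 (SE 0.0491), and PRPH (-0.03), DES (-0.05) and GFAP (0.02) did not pass, with a sign that depended on the scaling or on 1 array for these last 3. The neurofilament genes NEFL and NEFM were not analysed here.

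REST is the repressor that keeps neuronal genes, STMN2 among them, silent outside the nervous system. REST gave 9.20, 9.22 and 9.18 with wt-progerin against 9.58, 9.50 and 9.55 with S22A-progerin. The groups were apart with tight replicates, and REST rose 1.27-fold (difference 0.34, SE 0.0509, limma adjusted p = 0.00305). The list of REST and its partners, which also holds splicing regulators, had 17 measured genes. REST was the only rise, and 9 fell, 58.8% called beside 25.4% of all genes, with a median of -0.198. The list was bright, with a median signal at percentile 83 in wt-progerin. With the dimmer 50% of all genes left out, 1369 rose and 2365 fell of 7442, and the part of signal level in the 58.8% was not tested. HMG20B (-0.37) and RCOR1 (-0.24) of the corepressor complex and SIN3A (-0.32), a scaffold of histone deacetylases, fell. So did HDAC1 (-0.19) and the splicing regulators PTBP1 (-0.33) and PTBP2 (-0.23), of which HDAC1 and PTBP2 were named after their values were seen. The falls numbered 3 when wt-progerin replicate 1, 2 or 3 was left out and 5 without S22A-progerin replicate 2. RCOR1 (-0.232 to -0.244) did not pass without any 1 of the wt-progerin arrays, nor HDAC1 (-0.179 to -0.198) without any 1 array other than S22A-progerin replicate 1. PTBP2 (-0.217 to -0.239) did not pass without any 1 of the wt-progerin arrays or without S22A-progerin replicate 2.

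No neuronal transcription factor passed. Of 23 measured, 0 rose and 0 fell by limma at an adjusted p under 0.05, where 25.4% of all genes were called. The list was dim, with a median signal at percentile 33.3 in wt-progerin. SOX4 (-0.24, limma adjusted p = 0.0522) came nearest. It passed as lower in 4 of the alternatives (adjusted p = 0.0109 to 0.0405). At an unadjusted p under 0.05, 3 of the 23 differed. The share of all genes at that threshold was not taken, so nothing is read from this count. Among mRNA-binding factors, which include known regulators of STMN2 and GAP43 transcripts, 0 of 7 rose and 2 fell, 28.6% called beside 25.4% of all genes. HNRNPA1 fell by 0.49 (SE 0.0542) and KHSRP, a decay factor for AU-rich messages, by 0.17. KHSRP did not pass when any single array was left out (-0.156 to -0.192) or with the arrays quantile normalized again (-0.138). TARDBP, which encodes TDP-43, a protein needed for correct STMN2 splicing, was -0.19 (SE 0.105, limma adjusted p = 0.254). ELAVL4, the neuronal HuD protein that stabilises GAP43 mRNA, was not analysed here.

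Of 18 kinases and binding partners of the encoded proteins, 1 rose and 2 fell, 16.7% called beside 25.4% of all genes. CAMK2D, a calmodulin-dependent kinase, rose by 0.32 (SE 0.0596). MARK1, which phosphorylates microtubule-associated proteins, fell by 0.38, and MAPK9, the JNK2 kinase, by 0.17. MARK1 did not pass without any 1 of the wt-progerin arrays, at -0.355 to -0.388, and MAPK9 did not pass without any 1 of the 6 arrays, at -0.162 to -0.193, nor with the arrays quantile normalized again (-0.141).

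Genes that nerve injury induces together with GAP43 and STMN2 were measured for 22 of 40. Of these 5 rose and 4 fell, 40.9% called beside 25.4% of all genes, with a median of 0.048. VIP, a neuropeptide, gave 5.35, 5.31 and 5.55 against 6.61, 6.64 and 6.43, a rise of 2.23-fold (difference 1.15, SE 0.0884, limma adjusted p = 0.000179). ATF3 (0.70) and KLF6 (0.50), transcription factors of axon regrowth, BDNF (0.48), a neurotrophin, and SPRR1A (0.24), a cornified envelope protein induced in injured axons, rose. SOCS3, a brake on cytokine signalling and on axon regrowth, gave 8.55, 8.52 and 8.37 against 7.70, 7.66 and 7.51, a fall of 1.81-fold (difference -0.85, SE 0.0772). CSRP3 (-0.48), a muscle LIM protein, LIF (-0.33), a cytokine, and SMAD1 (-0.24), a BMP signal transducer, fell too. SOX11 and JUN of the same programme did not pass, though JUN was lower with the trend and robust prior (-0.153, limma adjusted p = 0.0447). The rises numbered 3 without wt-progerin replicate 1, and the falls 1 without wt-progerin replicate 1 or 2 and 2 without wt-progerin replicate 3 or S22A-progerin replicate 3. BDNF did not pass without wt-progerin replicate 1 (0.432), LIF without wt-progerin replicate 1 (-0.324) or 2 (-0.293), CSRP3 without any 1 array other than S22A-progerin replicate 2 (-0.324 to -0.541), and SMAD1 without any 1 other than S22A-progerin replicate 1 (-0.204 to -0.263). SPRR1A (0.191 to 0.271) did not pass without any 1 of the 6 arrays, with the arrays centred (0.208) or with the trend and robust prior. SPRR1A, CSRP3, LIF and SMAD1 were named after their values were seen, as were SOX11 and JUN.

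Neuron markers were checked as the other genes a neuronal programme would hold. Of 20 measured of 45, 3 rose and 1 fell, 4 called in all, where 25.4% of all genes were called. SCG5, a secretory granule chaperone of neuroendocrine cells, gave 6.0, 6.02 and 5.66 with wt-progerin against 7.60, 7.35 and 7.11 with S22A-progerin, a rise of 2.75-fold (difference 1.46, SE 0.146, limma adjusted p = 0.000521). STX1A (0.34), a synaptic fusion protein, and CHGB (0.28), a granule protein, rose, and CHGB did not pass without any 1 array other than wt-progerin replicate 1 (0.206 to 0.308), nor with the arrays quantile normalized again (0.252) or centred (0.242). THY1 (-0.32), a surface glycoprotein also found on fibroblasts, fell. The synaptic vesicle genes SYT1 (0.20), SYP (0.24) and SYN1 (0.14) did not pass, though SYT1 did without S22A-progerin replicate 3 (0.255) and with array weights (0.235). SYP passed with its probe sets averaged (0.458, limma adjusted p = 0.00256). SYP and SYN1 were named after their values were seen. The mean over the 20 markers was 6.38 to 6.42 on the wt-progerin arrays and 6.48 to 6.56 on the S22A-progerin arrays. This mean includes SCG5, and the differences of the 20 markers ran from -0.32 to 1.46 with a median of 0.102. Any tie of the mean to the STMN2 and GAP43 values was not tested.

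Markers of other cell types were read beside the 25.4% called of all genes. Of 7 glial markers 1 rose (OLIG1, 0.24) and 0 fell, 14.3% called, and of 9 epithelial and blood markers 1 rose (KRT18, 0.51) and 0 fell, 11.1% called. OLIG1 (0.208 to 0.241) did not pass without wt-progerin replicate 1 or 3 or S22A-progerin replicate 1, nor with the arrays centred (0.210). Markers of the line itself gave means of 12.50 for FN1, 10.89 for VIM and 8.77 for RUNX2 in wt-progerin. The osteoblast factor SP7 was at 6.25 and IBSP at 3.86, and neither passed. Of the 8 measured mesenchymal and osteoblast markers SPP1 (1.18) rose and LUM (-1.14), RUNX2 (-0.74) and FN1 (-0.42) fell, 50% called. The median signal of these 8 was at percentile 64.5 in wt-progerin. SP7 and IBSP were named after their values were seen. The array medians were 6.04 to 6.09, and S22A-progerin replicate 3 stood apart on the second principal component, at -15.5 against 6.51 and 9.29 for its group. Without it the differences were 0.735 for STMN2, 0.299 for GAP43 and -0.762 for MAP2. LMNA, the source gene of progerin, differed by 0.15 (SE 0.0508) and did not pass, though it did with the arrays quantile normalized again (0.169) or the dimmer 50% of genes left out. It does not check the S22A change.

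The measured gene nearest to STMN2 on each side of the chromosome was higher as well, while the next genes outward were not. By RefSeq gene order in GRCh38.p14, the nearest measured protein-coding genes on the 2 sides of STMN2 are IL7, an interleukin of lymphocyte growth, and HEY1, a transcriptional repressor in the Notch pathway. IL7 gave 5.68, 5.74 and 5.57 with wt-progerin against 6.74, 6.67 and 6.79 with S22A-progerin, a rise of 2.10-fold (difference 1.07, SE 0.0661, limma adjusted p = 8.08e-05). HEY1 gave 5.23, 5.11 and 5.07 against 6.03, 5.82 and 6.01, a rise of 1.77-fold (difference 0.82, SE 0.078, limma adjusted p = 0.000427). In both, every S22A-progerin array was above every wt-progerin array. The groups were free of overlap, in either direction, in 42.1% of all genes tested. The next genes outward on one side fell, PEX2 by 0.27 and ZFHX4 by 0.60, and the next ones on the other side, MRPS28 and TPD52, did not pass. PEX2 no longer passed without any 1 of the wt-progerin arrays, at -0.252 to -0.286, nor without S22A-progerin replicate 2, at -0.215.

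Around GAP43 none of the 6 neighbours passed by limma, and the nearest ones, ZBTB20 (0.28, SE 0.126) and LSAMP (0.04, SE 0.0771), included no rise. Of the 6, 0 had an unadjusted p under 0.05, a count not set beside the share of all genes at that threshold. Around MAP2 the nearest gene on one side, PTH2R, a parathyroid hormone receptor, rose by 0.30 (SE 0.066) while MAP2 was lower, and UNC80 (0.14, SE 0.0864) on the other side did not pass. PTH2R missed without wt-progerin replicate 2 (0.254, adjusted p = 0.0537). KANSL1L, farther along, fell by 0.30 (SE 0.0506). Of the 18 neighbours 3 rose and 3 fell, 33.3% called beside 25.4% of all genes. This comparison was chosen after the data were seen, and probe positions were not examined.

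**Figure D3:**
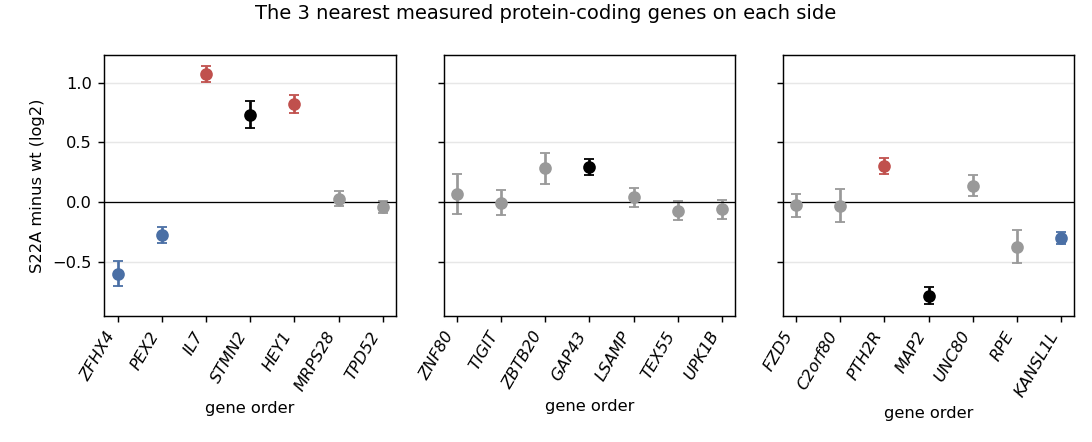
Difference S22A-progerin minus wt-progerin (y axis, log2, bars ± SE, n = 3 arrays per group) of STMN2, GAP43 and MAP2 (black) and of the 3 nearest measured protein-coding genes on each side in chromosome order (x axis, not to scale), red where the gene rose, blue where it fell and grey where it did not pass. IL7 at 1.07 and HEY1 at 0.82 flank STMN2 at 0.73, and MAP2 at -0.78 stands below all its neighbours shown.

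Genes with the most similar profile were found by the Euclidean distance between values on the 6 arrays, each gene centred on its own mean, among 12605 named genes. Nearest to STMN2 were OPN5, an opsin, at 0.160, then KPNA7, a nuclear import adaptor of the importin alpha family, at 0.217, FRMD4B at 0.239, ARHGAP25 at 0.253 and DUSP5, a phosphatase of ERK, at 0.255. OPN5 went from 4.83 ± 0.243 to 5.47 ± 0.0637 (SD, n = 3), with a wide wt-progerin spread like that of STMN2. Such likeness follows from the choice by distance. DUSP5 had a difference of 0.865, and of 0.565 with its probe sets averaged. Nearest to GAP43 were RNF225 at 0.0596, CD300LB at 0.0695, MAP4K5, a stress-kinase activator, at 0.086, F7, coagulation factor VII, at 0.0874, and HSD11B1, a cortisol-generating enzyme, at 0.0881. Nearest to MAP2 were DBP, a circadian transcription factor, at 0.0812, JPH3, a junctophilin of neurons, at 0.0896, ARHGEF17 at 0.114, MDM1 at 0.116 and PLS1, an actin-bundling fimbrin, at 0.134. DBP went from 9.99 ± 0.0572 to 9.22 ± 0.083 (SD, n = 3). The distance between STMN2 and GAP43 themselves was 0.677. MAP2 was 1.88 from STMN2 and 1.36 from GAP43. With the arrays quantile normalized again 3, 2 and 4 of the 5 nearest genes of STMN2, GAP43 and MAP2 were shared with these, and with the arrays centred on their medians all 5 of each.

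**Figure D4:**
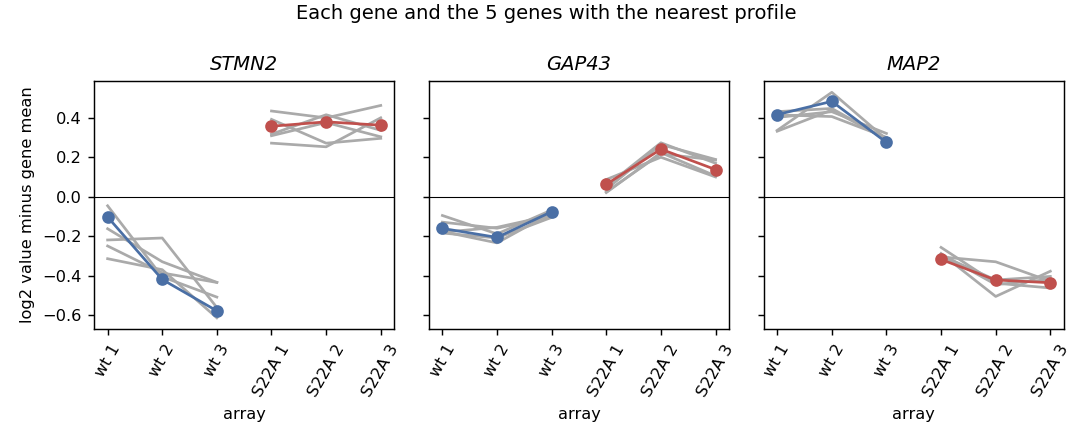
Values on the 6 arrays (x axis, replicates in label order) minus each gene's own mean (y axis, log2) for STMN2, GAP43 and MAP2 (blue in wt-progerin, red in S22A-progerin) and for the 5 genes nearest to each (grey), with lines only to guide the eye. The genes near STMN2 were chosen by distance, so they share its step up. They scatter more around it (distances of 0.160 to 0.255) than those near GAP43 (0.0596 to 0.0881) and MAP2 (0.0812 to 0.134) around theirs.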

How the data were processed

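Transcript levels were measured on Affymetrix whole-transcript arrays, 3 per group. The deposited log2 values came from RMA, run by the authors in the Expression Console of Affymetrix, per the submitters' processing notes. The genome build is not given in the sources used here. Of 53617 probe sets, 16098 had 1 gene symbol in the platform annotation, 0 had several and 37519 were not named here. The brightest probe set stood for a gene (779 genes had several). Genes were tested with limma 3.58.1 in R 4.3.3 (lmFit, eBayes, 2 groups, no covariate, no filter on dim genes), two-sided, with Benjamini-Hochberg adjustment over 14884 genes, called at 0.05. The code was tested on simulated arrays. Folds are powers of 2 of log2 differences. The members and the 14 lists (349 genes, 208 measured, the 3 members left out) were chosen with earlier results of these data known. Named genes are LMNA, list genes with the smallest p (up to 5, or all of 2 small lists), 10 preset genes and, per member, the 5 nearest profiles. Others are said to be picked later. Windows before starts came from RefSeq tables. Alternatives covered normalization, dim genes, probe sets, priors, weights for arrays, a replicate block, each array left out and stricter thresholds. The number of arrays limits the precision.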

Additional observations from a re-analysis of the deposited data

How the results depend on the processing

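With 3 arrays per group and no detection calls, small differences and low signals are the main limits. The differences of STMN2 (0.628 to 0.866), GAP43 (0.248 to 0.337) and MAP2 (-0.842 to -0.738) kept their direction with any array left out. They moved by less than 1 SD, pooled over both groups' replicates, under every alternative that kept them, and leaving out the dimmer 50% of genes dropped all 3. Of 63 named genes that passed, 42 did so under every alternative that tested them. The stricter thresholds were not applied to single named genes. In these paragraphs the cause of a changed count was not tested, apart from stricter thresholds and fewer genes.

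With any array left out, 1127 to 1550 genes were higher and 1512 to 2047 lower. The ranges were 2 to 4 higher for growth cone genes, 3 to 5 higher and 9 to 15 lower for microtubule-associated proteins, 3 to 8 lower for REST and partners, 1 to 1 lower for mRNA-binding factors, 0 to 1 lower for kinases and partners, 3 to 4 higher and 1 to 3 lower for regeneration-associated genes, 0 to 1 higher for glial markers, 0 to 1 lower for neuronal transcription factors, and 1 to 2 higher and 0 to 1 lower for epithelial and blood markers. Quantile normalizing again left 1 lower mRNA-binding factor and 1 lower kinase. Centring on medians gave 3 higher microtubule-associated proteins, 1 lower neuronal transcription factor and 0 higher glial markers. Without the dimmer 50% of genes, 1 neuron marker and 0 glial markers were higher and 1 neuronal transcription factor lower, as 1 was with the trend and robust prior. The replicate numbers did not pair the arrays (deviations correlated at -0.0195, -0.0549 and -0.00558). With the replicate block, 2 growth cone genes and 0 glial markers were higher, and DCX passed as higher (0.256, limma adjusted p = 0.0431). Lower with it were 3 genes of the list of REST and partners, 1 mRNA-binding factor, 1 kinase and 2 regeneration-associated genes.

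At an adjusted p under 0.01, 852 genes were higher and 1226 lower. Higher were 2 growth cone genes, 3 microtubule-associated proteins, 3 regeneration-associated genes and 0 glial markers. Lower were 9 microtubule-associated proteins, 3 genes of the list of REST and partners, 1 mRNA-binding factor, 0 kinases and 1 regeneration-associated gene. With a difference of at least 0.5, 547 were higher and 633 lower, with 1 growth cone gene, 2 microtubule-associated proteins, 1 neuron marker, 3 regeneration-associated genes and 0 genes of REST and partners, kinases or glial markers higher. Lower were 3 growth cone genes, 4 microtubule-associated proteins, 1 regeneration-associated gene and 0 neuron markers, REST partners, mRNA-binding factors or kinases. Signs turned only for genes near 0 that never passed. GFAP became -0.008 (quantile) and -0.014 (centred), IBSP -0.009 and MRPS28 -0.005 (centred), and DES 0.035 (probe sets averaged). With any array left out GFAP ran from -0.043 to 0.099, DES from -0.158 to 0.046, PRPH from -0.073 to 0.023, LSAMP from -0.012 to 0.1, IBSP from -0.087 to 0.09, MRPS28 from -0.015 to 0.062, SOX11 from -0.025 to 0.115, CNTN1 from -0.088 to 0.006, NRCAM from -0.199 to 0.027 and SP7 from -0.035 to 0.049.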
